A study of Mus musculus with 6 samples.

Results

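Endothelial cells that carried transcripts of *Vwf*, the gene for von Willebrand factor, made up 268 of the 11207 cells analysed from mouse tibialis anterior muscle (TAM), or 2.39%, and 20.6% of the 1298 endothelial cells. A cell was a member if it had at least 1 unique molecular identifier (UMI, a counted transcript molecule) of *Vwf*, UMIs of at least 2 of the 4 endothelial genes *Cdh5*, *Pecam1*, *Cldn5*, and *Egfl7*, and none of *Pdgfra*, which marks fibro-adipogenic progenitors (FAPs), or *Ptprc*, which marks leukocytes. The other 1030 endothelial cells met the same conditions with *Vwf* at 0 and are called *Vwf*-negative. The cells were thus selected on measured values, mainly of *Vwf*, so its own level and the share of cells with it are given as a description, with no test.

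von Willebrand factor is a large glycoprotein that endothelial cells store in Weibel-Palade bodies, release on activation, and use to tether platelets at sites of vessel damage. P-selectin, encoded by *Selp*, is stored in the same granules and catches rolling leukocytes. Veins, venules, and larger vessels are known to carry more von Willebrand factor than most capillaries, and after muscle injury the venules are the main place where leukocytes leave the blood.

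Single-cell RNA sequencing with 10x 3′ chemistry was done on TAM of male mice on a control diet or made hypothyroid, at 0 (uninjured), 5, and 14 days after cardiotoxin injury (dpi). All mice carried the Fucci2aR cell cycle reporter in Gt(ROSA)26Sor (allele tm1, Jkn) on a B6;129 background, an allele that by the study's methods was not switched on in the animals sequenced, since they lacked the *Pax7*-driven Cre. Mice were 3 to 5 months old when the diet began. Hypothyroid mice ate iodine-deficient chow with 0.15% propylthiouracil for 3 weeks before injury and control mice a matched chow, and injured mice of both diets received cardiotoxin at 50 µg/ml in the right TAM. Each of the 6 combinations was 1 library of 3 pooled mice, so differences between conditions carry no test, their intervals cover counting error only, and condition and library cannot be told apart. The labels give the day as the batch, so both diets of a day share one, and day and batch cannot be told apart.

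The libraries held 528 to 3294 cells and 2283704 to 23496418 UMIs in all. Those of the 268 cells summed to 1895793 UMIs. Hypothyroid muscle at 0 dpi gave only 1 *Vwf*-positive cell, so that library enters no comparison below, and control muscle at 14 dpi gave 163 cells, 60.8% of the total. The libraries shared 12 cell barcodes, none with the same values. Each file held further columns of uncertain condition after a first ordered run of barcodes, and only that run was used. Whether a first run is the labelled library could not be checked from the data, and all comparisons between conditions rest on it. No doublets were removed, and cells that hold RNA of other types were kept, with the markers given beside each result.

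The rule caught cells near its edges. Of the 268 cells, 148 had a single *Vwf* UMI, 57 had 2, and 63 had 3 or more, up to 15. All 4 endothelial genes were found in 155 of them, 3 in 82, and 2 in 31. Just outside the rule, 22 cells with *Vwf* had only 1 endothelial gene, and 31 had at least 2 but also carried *Pdgfra* or *Ptprc*. The gene *Vwf* lies on the plus strand at chr6:125523737-125663642 (GRCm39).

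Between 3.70% and 32.0% of endothelial cells were *Vwf*-positive, depending on the library. In control muscle the share was 13.5% (12 of 89 cells, 95% Clopper-Pearson interval 7.17 to 22.4) at 0 dpi, 32.0% (40 of 125, 23.9 to 40.9) at 5 dpi, and 22.0% (163 of 740, 19.1 to 25.2) at 14 dpi. In hypothyroid muscle it was 3.70% (1 of 27, 0.0937 to 19.0), 29.7% (11 of 37, 15.9 to 47.0), and 14.6% (41 of 280, 10.7 to 19.3). Both diets thus had their highest share at 5 dpi before depth was set equal.

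Depth moved with these shares. In 5 of the 6 libraries *Vwf*-positive cells were deeper than *Vwf*-negative ones, with a median of 3959 against 2488 UMIs in control muscle at 14 dpi, for example, and 7837.5 against 3554 at 5 dpi. In hypothyroid muscle at 5 dpi the order was the other way, at 4370 against 6941.5. After each cell was thinned to 1000 UMIs, which left out 221 shallower endothelial cells, the control shares were 9.76% (2.72 to 23.1), 9.43% (4.62 to 16.7), and 10.4% (7.85 to 13.3), so no order over time was left in control muscle. The hypothyroid shares after thinning were 0% of 13 cells at 0 dpi, which allows up to 24.7%, 7.41% (0.910 to 24.3) at 5 dpi, and 4.90% (2.38 to 8.83) at 14 dpi. At 14 dpi the hypothyroid share lay below the control share at either depth, with intervals that overlapped at their edges. Among cells with none of the 4 endothelial genes, which should lack *Vwf*, 0.511% to 1.84% held a *Vwf* UMI, and 0.0622% to 0.462% after thinning, at median depths of 3689 to 7665 UMIs.

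**Figure D1:**
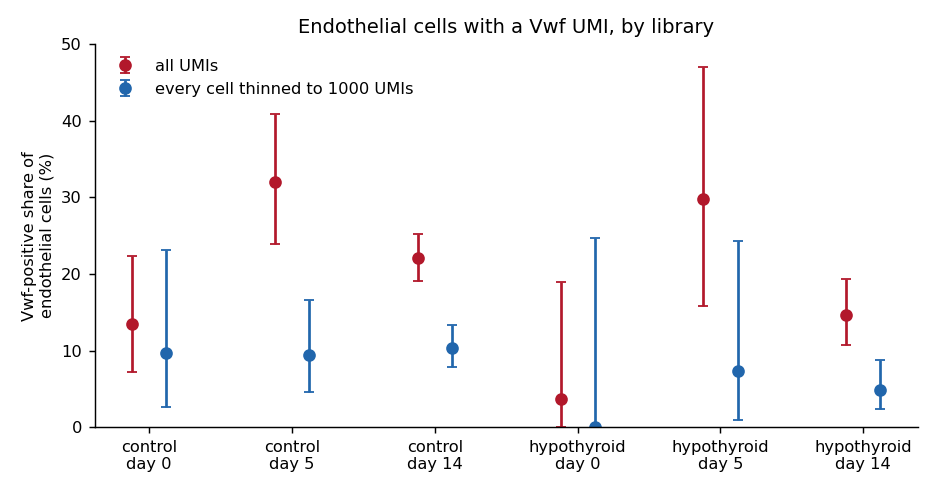
Share of endothelial cells with a *Vwf* UMI (vertical axis, %) in each of the 6 libraries (horizontal axis), from all UMIs (red) and after every cell was thinned to 1000 UMIs (blue). Points are shares of 1 library and bars are 95% Clopper-Pearson intervals. The 32.0% of control muscle at 5 dpi becomes 9.43% at equal depth, level with the 9.76% and 10.4% of the other control libraries.

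Beyond *Vwf*, no gene passed the adjusted test between *Vwf*-positive and *Vwf*-negative cells, and of the venule, arterial, and capillary lists the venule list had the highest median difference. Levels here are CPM, the share that a gene took of all UMIs summed over the cells of a class in a library, scaled to a common total. The summed levels of *Vwf*-positive and *Vwf*-negative cells were compared on log2(CPM + 10) with limma, with the library as a block, over the 5 libraries with at least 10 cells of each class, and with the 7 genes of the rule left out. Of 3399 genes tested, 0 passed an adjusted p of 0.05 in either direction (0.0% of the genes tested each way). At an unadjusted p under 0.05, 147 genes were higher (4.32%) and 118 lower (3.47%). A precision-weighted fit (limma with voom weights) called 7 genes higher and 10 lower. In all 5 libraries alike, 198 genes (5.83%) were higher and 151 (4.44%) lower.

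The venous and venule list held the largest share of higher genes among the vessel lists. Of its 16 genes 14 passed the filter of a mean of 50 CPM, and of these 8 were higher at an unadjusted p under 0.05 and 0 lower, and 5 were higher in every library, with a median difference of 1.01 on the log2 scale against -0.00 over all genes tested. *Ackr1*, *Sele*, *Lrg1*, *Ptgs1*, and *Ephb4* passed only through the *Vwf*-positive cells, with means under 50 CPM in *Vwf*-negative cells, so the filter favoured a higher value for these 5. Of the 9 that passed in both classes on their own, 4 were higher and 0 lower (median 0.51), against 136 higher and 70 lower of 3085 genes in all. Among genes of leukocyte adhesion, chemokines, and cytokines, which share *Selp*, *Sele*, and *Vcam1* with the venule list, 6 of 18 were higher and 0 lower (median 0.54), or 4 of the 16 that passed in both classes. Of 15 arterial genes 1 was higher (median 0.22), and 1 capillary gene of 13 (median -0.33). In the haemostasis list 1 of 12 was higher and 2 were lower (median 0.04), with members on both sides of 0.

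**Figure D2:**
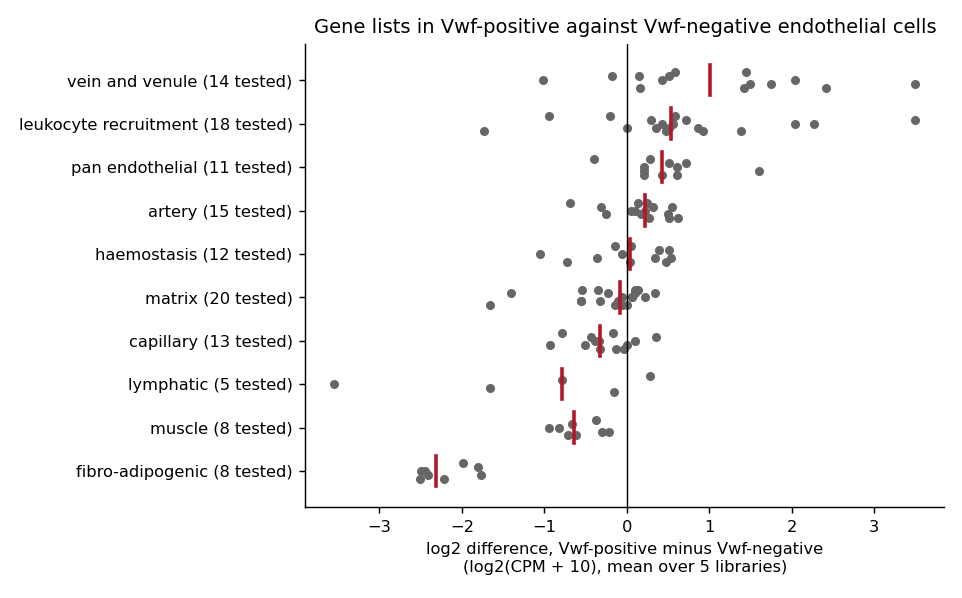
Log2 difference between *Vwf*-positive and *Vwf*-negative endothelial cells (horizontal axis, log2(CPM + 10), fitted over 5 libraries) for each tested gene (grey points) of 10 gene lists (vertical axis), with the list medians (red bars). The venous and venule list has its median at 1.01 and the fibro-adipogenic list at -2.31, and no single gene passes the adjusted test. Over the 9 venule genes that passed the filter in both classes on their own, the median is 0.51.

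*Selp* had the widest gap among the venule genes. In *Vwf*-positive cells its level was 4216 CPM (95% Poisson interval 3695 to 4790) in control muscle at 0 dpi, 540 (471 to 617) at 5 dpi, and 862 (806 to 920) at 14 dpi, and in hypothyroid muscle 168 (91.7 to 281) at 5 dpi and 933 (830 to 1044) at 14 dpi. In *Vwf*-negative cells the same libraries gave 5.24, 142, 151, 157, and 19.5 CPM. The log2 difference was 3.50 ± 0.99 (SE, 5 libraries), higher in 5 of 5, with an adjusted p of 0.56 from limma. The gap in hypothyroid muscle at 5 dpi was small next to the others.

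Few cells carried most of these *Selp* transcripts. In control muscle 6 of 12 cells at 0 dpi had any, and a single cell gave 85.2% of them. At 5 and 14 dpi 16 and 37 control cells had *Selp*, with 22.5% and 22.4% from the highest cell. In hypothyroid muscle 2 cells had it at 5 dpi and 2 at 14 dpi, where 1 cell held 99.7% of the UMIs. With the highest cell of each gene left out of each sum the log2 difference was 1.98. With cells thinned to 1000 UMIs before the rule was applied it was 0.93, and with at least 3 of the 4 endothelial genes asked of a cell it was 0.47. The thinned fit lacked control muscle at 0 dpi and hypothyroid muscle at 5 dpi, where 4 and 2 *Vwf*-positive cells were left. The fit with at least 3 genes lacked control muscle at 0 dpi, where 9 were left. In these values the setting and the lost libraries cannot be told apart.

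*Ackr1*, an atypical chemokine receptor of venules, was present at 661 CPM (465 to 911) in the *Vwf*-positive cells of control muscle at 0 dpi. At 5 and 14 dpi it was at 39.6 and 76.1 CPM. In hypothyroid muscle it was at 0 of 83465 UMIs at 5 dpi, where a floor of 3 counts equals 35.9 CPM, and at 71.7 CPM at 14 dpi. In *Vwf*-negative cells it was between 0 and 11.2 CPM. The difference was 2.42 ± 0.94 (SE, limma adjusted p = 0.58), higher in 4 of 5 libraries. A single cell gave 89.2% of the transcripts at 0 dpi in controls and 95.7% at 14 dpi in hypothyroid muscle. *Sele*, the gene of E-selectin, differed by 2.04 ± 0.48 (adjusted p = 0.56, higher in 4 of 5), with the lower value in the *Vwf*-positive cells of hypothyroid muscle at 5 dpi, 71.9 against 86.0 CPM.

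*Plvap*, which encodes the diaphragm protein of fenestrae and caveolae in veins and some capillaries, had the smallest unadjusted p of the named genes. It belongs to the list of endothelial genes at large and not to the venule list. Its *Vwf*-positive levels were 858, 496, and 207 CPM in control muscle at 0, 5, and 14 dpi and 371 and 106 CPM in hypothyroid muscle at 5 and 14 dpi, against 157, 238, 55.9, 198, and 18.0 CPM in *Vwf*-negative cells. The difference of 1.61 ± 0.24 (SE, limma adjusted p = 0.48) was seen in 5 of 5 libraries and rested less on single cells, with 1.72 when the highest cell was left out. After thinning of both the rule and the sums it was 0.17, in a fit without control muscle at 0 dpi and hypothyroid muscle at 5 dpi. In the venule list *Lrg1*, a secreted leucine-rich glycoprotein, was higher by 1.75 ± 0.54, *Cpe*, a carboxypeptidase, by 1.5 ± 0.35, *Tmem252* by 1.45 ± 0.54, and *Ptgs1*, the constitutive prostaglandin synthase, by 1.43 ± 0.45, each in 5 of 5 libraries and each with an adjusted p of 0.56. After thinning of rule and sums *Cpe* and *Tmem252* turned to -0.013 and -0.11, again without those libraries.

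**Figure D3:**
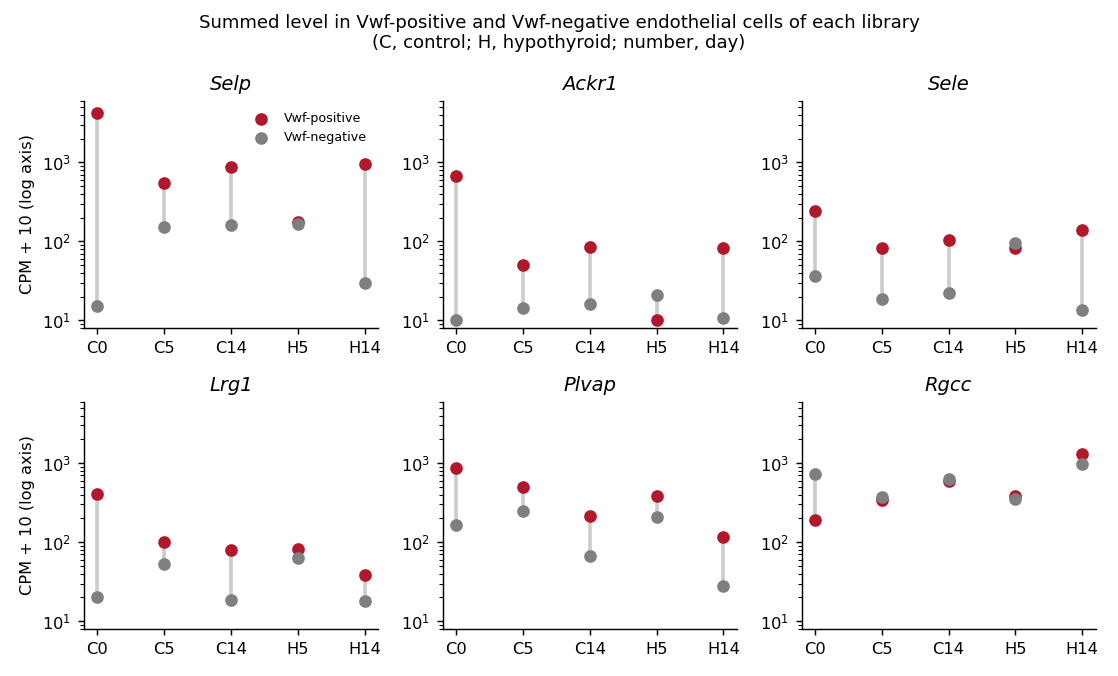
Summed level of 6 genes (vertical axis, CPM + 10, log axis) in *Vwf*-positive (red) and *Vwf*-negative (grey) endothelial cells of the 5 libraries with at least 10 cells of each class (horizontal axis, C for control and H for hypothyroid with the day). Each point is 1 library. *Selp* and *Plvap* are higher in the *Vwf*-positive cells of every library, *Ackr1* and *Sele* in 4 of 5, and the capillary gene *Rgcc* shows no common direction.

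The promoters of *Selp*, *Ackr1*, *Sele*, and *Lrg1*, the venule genes with the largest fitted differences, are shown from the RefSeq promoter table. *Selp* and *Lrg1* were higher in *Vwf*-positive cells in 5 of 5 libraries, and *Ackr1* and *Sele* in 4 of 5, so they did not move together in every library. Each is the 250 bases before the start site in GRCm38.p6, a different build from that of the data, for *Selp* (chr1:164115014-164115263, plus strand), *Sele* (chr1:164047984-164048233, plus), *Ackr1* (chr1:173333504-173333753, minus), and *Lrg1* (chr17:56121947-56122196, minus). Capitals mark AGGAAG or its reverse complement CTTCCT, letters that hold the core read by ETS factors and that were picked after the sequences had been seen.
Selp: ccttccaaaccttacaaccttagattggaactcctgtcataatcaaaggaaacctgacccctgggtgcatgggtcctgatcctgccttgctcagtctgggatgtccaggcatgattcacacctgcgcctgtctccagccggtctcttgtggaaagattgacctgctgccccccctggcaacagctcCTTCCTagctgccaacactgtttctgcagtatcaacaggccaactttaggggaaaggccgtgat
Sele: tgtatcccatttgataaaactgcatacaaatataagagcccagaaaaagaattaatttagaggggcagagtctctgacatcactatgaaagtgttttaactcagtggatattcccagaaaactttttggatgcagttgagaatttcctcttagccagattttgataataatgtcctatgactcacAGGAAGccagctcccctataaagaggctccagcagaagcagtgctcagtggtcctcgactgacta
Ackr1: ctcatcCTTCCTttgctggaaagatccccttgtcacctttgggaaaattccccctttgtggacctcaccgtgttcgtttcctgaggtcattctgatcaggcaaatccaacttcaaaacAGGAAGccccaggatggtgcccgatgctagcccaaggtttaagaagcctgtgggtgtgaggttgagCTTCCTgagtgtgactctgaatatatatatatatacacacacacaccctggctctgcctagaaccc
Lrg1: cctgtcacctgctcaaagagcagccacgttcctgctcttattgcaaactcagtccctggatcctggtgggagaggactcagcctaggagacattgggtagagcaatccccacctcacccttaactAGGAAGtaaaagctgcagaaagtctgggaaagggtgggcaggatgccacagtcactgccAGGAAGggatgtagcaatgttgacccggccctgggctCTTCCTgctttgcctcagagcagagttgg

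*Selp* and *Sele* held 1 match each, 64 and 65 bases before the start, and *Ackr1* and *Lrg1* held 3 each, 1 of them 66 bases before the start in both genes. Of all 32851 promoters in the table, 29.5% held at least 1 match over the same length. *Vwf* and *Plvap* had no entry in the table.

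Genes of endothelial cells at large were also a little higher in *Vwf*-positive cells. Of 11 tested genes, 4 were higher and 0 lower at an unadjusted p under 0.05 (median 0.43). *Plvap* was 1 of them, with the larger difference given above. The others were *Emcn*, a sialomucin of veins and capillaries, by 0.61 ± 0.21, *Eng*, a TGF-β co-receptor, by 0.61 ± 0.17, and *Erg*, an endothelial transcription factor, by 0.72 ± 0.26 (SE, 5 of 5 libraries, limma adjusted p = 0.56 for each). *Emcn* came to -0.014 after thinning of rule and sums, in a fit without control muscle at 0 dpi and hypothyroid muscle at 5 dpi. In the Notch, TGF-β, and BMP list 3 of 14 were higher and 0 lower (median 0.16), with *Smad6*, an inhibitor of BMP signalling, at 1.07 ± 0.25 and *Notch1* at 0.51 ± 0.19, both higher in 5 of 5 libraries. Those differences became -0.16 and -0.31 after thinning of rule and sums, again without those libraries.

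Activation genes gave a mixed picture. *Csf3*, the gene of granulocyte colony-stimulating factor, differed by 2.27 ± 0.84 (SE, limma adjusted p = 0.56, higher in 4 of 5 libraries), yet 1 cell held all 119 *Csf3* UMIs at 0 dpi in controls and 1 held 96.8% at 14 dpi in hypothyroid muscle. *Icam1*, a leukocyte adhesion molecule found in many of the cells, was at 750, 696, and 846 CPM in control muscle at 0, 5, and 14 dpi and 455 and 1123 CPM in hypothyroid muscle at 5 and 14 dpi, against 115, 583, 556, 527, and 424 CPM in *Vwf*-negative cells. Its difference was 0.93 ± 0.37 (adjusted p = 0.59, higher in 4 of 5). It was -0.015 with cells thinned before the rule, without control muscle at 0 dpi and hypothyroid muscle at 5 dpi. *Nfkbia*, the inhibitor of NF-κB, was higher by 0.59 ± 0.14 and *Il6st*, the shared receptor chain of the IL-6 family, by 0.99 ± 0.26, each in 5 of 5 libraries. *Vcam1*, an adhesion molecule of the venule list, showed a difference of 0.51 ± 0.68 that became -0.26 without control muscle at 0 dpi.

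FAP genes and some single genes had lower values. *Spp1*, the gene of osteopontin, differed by -2.54 ± 0.44, *Tnfrsf12a*, the TWEAK receptor, by -1.05 ± 0.17, and *Cd63*, a membrane protein of Weibel-Palade bodies and lysosomes, by -0.73 ± 0.25 (SE, limma, lower in 5 of 5 libraries, adjusted p = 0.48, 0.48, and 0.56). *Cd63* turned to 0.68 from means over cells of log2(CPM + 1). FAP genes were lower at an unadjusted p under 0.05 in 4 of 8 tested and higher in 0 (median -2.31), and their summed level over 11 markers was 192 to 2408 CPM in *Vwf*-positive and 399.7 to 12226 CPM in *Vwf*-negative cells of these libraries. The 12 muscle markers summed to 119.8 to 11010.2 CPM against 176 to 26078 CPM, with a median difference of -0.64 over 8 tested genes, of which 0 were lower at an unadjusted p under 0.05. The part of this RNA in the differences was not tested.

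Defining lymphatic markers were at or near 0, while other marker lists varied by library. *Ccl21a* and *Mmrn1*, defining genes of lymphatic endothelium, were at 0 UMIs in the *Vwf*-positive cells of every library, while *Ccl21a* reached 1524 CPM in the *Vwf*-negative cells of control muscle at 0 dpi and 775 CPM at 14 dpi. Any of *Prox1*, *Lyve1*, *Ccl21a*, or *Mmrn1* was found in 8 of the 268 cells. The whole list of 10 lymphatic markers, some of which other endothelial cells express, summed to 108 to 911 CPM in *Vwf*-positive and 107 to 2509 CPM in *Vwf*-negative cells of the 5 libraries, with 3 to 7 of the 10 at 0 in the former. Leaving out cells with at least 2 of the 10 left 10 of 12, 35 of 40, and 144 of 163 control cells and 10 of 11 and 37 of 41 hypothyroid cells. The 5 hemoglobin genes summed to 0 to 4395 CPM in *Vwf*-positive and 0 to 2936 CPM in *Vwf*-negative cells, the highest value of both in control muscle at 14 dpi. The 3 platelet markers analysed (*Pf4*, *Ppbp*, and *Itga2b*) summed to 0 to 21.8 CPM, and the 11 myeloid markers left after *Ptprc* to 0 to 203 CPM.

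The name larger vessel endothelium fitted only some of the cells. Sets of genes for 3 vessel types, chosen after values had been seen, were counted cell by cell, as any of *Selp*, *Ackr1*, or *Sele* for venules, any of *Gja4*, *Gja5*, or *Sema3g* for arteries, and any of *Car4*, *Gpihbp1*, *Btnl9*, or *Cd300lg* for capillaries. Venule genes were found in 6 of 12, 17 of 40, and 44 of 163 *Vwf*-positive cells of control muscle at 0, 5, and 14 dpi and in 2 of 11 and 3 of 41 of hypothyroid muscle at 5 and 14 dpi. Arterial genes were found in 5, 9, 61, 2, and 7 of those cells. Capillary genes, with 4 in the set against 3, were found in 4, 28, 102, 7, and 40 of them. Before thinning they were thus the most frequent kind in 4 of the 5 libraries and reached 97.6% in hypothyroid muscle at 14 dpi. After thinning, venule genes were more frequent than capillary genes in control muscle at 0 dpi (45.5% against 18.2%) and 5 dpi (38.5% against 25.6%). Capillary and arterial genes were then level at 10.0% in hypothyroid muscle at 5 dpi, and capillary genes led in both diets at 14 dpi. The cells are therefore called *Vwf*-positive here and not larger vessel cells.

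Venule genes were more frequent in *Vwf*-positive cells of the control libraries at either depth. Before thinning the shares were 50.0% (21.1 to 78.9), 42.5% (27.0 to 59.1), and 27.0% (20.3 to 34.5) at 0, 5, and 14 dpi against 1.30% (0.0329 to 7.02), 16.5% (9.31 to 26.1), and 5.03% (3.39 to 7.14). Thinning was applied here to the vessel-type genes only, while the classes stayed as called from all UMIs, so depth still bears on the *Vwf* call. After thinning to 1000 UMIs, venule genes were found in 45.5% (16.7 to 76.6), 38.5% (23.4 to 55.4), and 20.1% (14.1 to 27.3) of *Vwf*-positive cells of control muscle at 0, 5, and 14 dpi, against 0% of 52 (up to 6.85%), 9.09% (3.73 to 17.8), and 3.24% (1.82 to 5.29) of *Vwf*-negative cells. The intervals, which cover only the counting of cells within a library, did not overlap within any of the 3 control libraries at either depth. The 3 venule genes were picked after their differences between these classes had been seen, so the gap is given as values and is no test. In hypothyroid muscle the shares were 0% of 10 cells against 12.0% (2.55 to 31.2) at 5 dpi and 2.63% (0.0666 to 13.8) against 1.04% (0.126 to 3.71) at 14 dpi, which overlapped.

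Capillary genes gave an order that depended on depth in 3 libraries. Before thinning they were more frequent in *Vwf*-positive cells in control muscle at 5 dpi (70.0% against 57.6%) and in hypothyroid muscle at 5 dpi (63.6% against 57.7%) and 14 dpi (97.6% against 86.2%), and less frequent in control muscle at 0 dpi (33.3% against 50.6%) and 14 dpi (62.6% against 77.3%). After thinning in control muscle at 14 dpi 38.3% (30.6 to 46.5) of *Vwf*-positive cells held one against 60.7% (56.1 to 65.2) of *Vwf*-negative cells. The other 4 libraries then also had the lower share in *Vwf*-positive cells, with overlapping intervals, such as 50.0% (33.4 to 66.6) against 60.4% (53.1 to 67.4) in hypothyroid muscle at 14 dpi. After thinning arterial genes were found in 7.69% to 15.6% of *Vwf*-positive and 0% to 13.5% of *Vwf*-negative cells, with overlapping intervals in all 5 libraries, while before it control muscle at 14 dpi had 37.4% against 19.1%, with intervals that did not overlap. Venule and arterial genes met in 1 cell in 0, 2, and 4 control and 0 and 2 hypothyroid cells, so the overlap was small in control muscle and took 2 of the 3 venule-marked cells of hypothyroid muscle at 14 dpi.

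**Figure D4:**
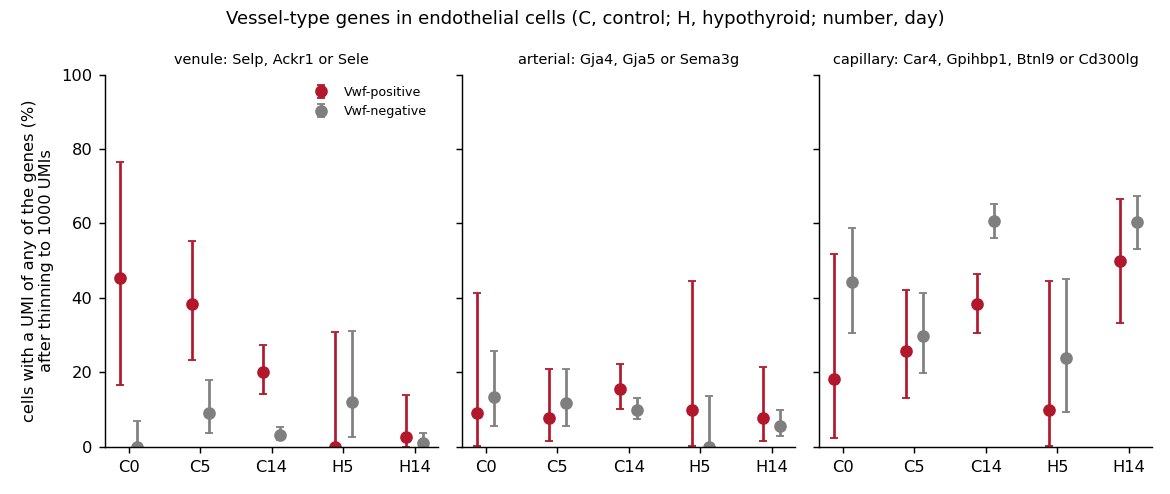
Share of *Vwf*-positive (red) and *Vwf*-negative (grey) endothelial cells with a UMI of any gene of a vessel-type set (vertical axis, %) in the 5 libraries (horizontal axis, C for control and H for hypothyroid with the day). The set genes were counted after thinning to 1000 UMIs, and the classes were called from all UMIs. Points are 1 library each and bars 95% Clopper-Pearson intervals. Venule genes are more frequent in *Vwf*-positive cells of the 3 control libraries and capillary genes less frequent in all 5 at this depth, though in control muscle at 14 dpi alone do the capillary intervals stand apart. The gene sets were chosen after values had been seen.

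In control muscle cells with more *Vwf* UMIs had more of *Plvap* and of some venule genes, and in hypothyroid muscle the order varied by gene. In control muscle at 14 dpi the 65 cells with 2 or more *Vwf* UMIs had 358 CPM of *Plvap* against 93.9 CPM in the 98 cells with 1 UMI, 150 against 20.5 CPM of *Ackr1*, 130 against 23.9 CPM of *Lrg1*, and 1185 against 619 CPM of *Selp*. *Cd36*, a fatty acid receptor of capillaries, was at 1297 against 1609 CPM. In control muscle at 5 dpi the 22 cells with 2 or more UMIs had 925 CPM of *Selp* against 66.3 CPM in the 18 cells with 1. In hypothyroid muscle *Selp* was at 289 against 0 CPM at 5 dpi and 1501 against 8.19 CPM at 14 dpi. As given above, few hypothyroid cells held *Selp*, and 1 cell held nearly all of its UMIs at 14 dpi. *Plvap* was at 330 against 429 CPM at 5 dpi, and *Lrg1* at 41.2 against 114 CPM at 5 dpi and 10.1 against 57.3 CPM at 14 dpi. *Cd36* was lower with 2 or more *Vwf* UMIs in hypothyroid muscle at 14 dpi, at 1682 against 2645 CPM. These splits rest on the gene that chose the cells and are given as values.

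Mural RNA was found in both classes of endothelial cells. *Rgs5*, a defining gene of pericytes, was found in 3 of 12, 10 of 40, and 75 of 163 *Vwf*-positive control cells and 4 of 11 and 26 of 41 hypothyroid ones. Among *Vwf*-negative cells it was found in 7 of 77, 16 of 85, and 220 of 577 control and 5 of 26 and 125 of 239 hypothyroid cells. The 11 mural markers summed to 1102 to 6533 CPM over these libraries, against 1068 to 4562 CPM in *Vwf*-negative cells. The 8 mural genes tested went both ways (median 0.09). *Myh11*, the smooth muscle myosin heavy chain, was at 0.96 ± 0.25 (SE, higher in 5 of 5 libraries), *Rgs5* at 0.65 ± 0.29 (higher in 4 of 5), and *Des*, the desmin gene, at -1.74 ± 0.50 (lower in 4 of 5), with limma adjusted p of 0.56, 0.64, and 0.56.

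The next comparisons set the *Vwf*-positive cells of different days side by side. Each day came from other mice, so no cell or vessel was followed. A gene was called at a 2-fold ratio of summed CPM or more, among genes with a mean of at least 50 CPM over both libraries. Between 0 and 5 dpi in control muscle (12 and 40 cells), 563 of 3359 genes (16.8%) were at least 2-fold higher at 5 dpi and 580 (17.3%) lower. The 12 cells at 0 dpi held 55975 UMIs, against 403584 at 5 dpi.

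Basement membrane genes were higher at 5 dpi. In the matrix list 11 of 18 genes were at least 2-fold higher and 0 lower, with a median ratio of 2.86 against 1.01 over all genes tested. *Col4a1*, a chain of type IV collagen, went from 339 CPM (204 to 530) to 2735 (2576 to 2902), a ratio of 8.06 (95% interval 5.14 to 13.4). *Col4a2* was 15.3 times higher (5.94 to 56.5), *Hspg2*, the perlecan gene, 8.69 times (3.96 to 23.8), and *Sparc*, a collagen-binding matricellular gene, 7.29 times (4.92 to 11.3). These genes were seen in 35 to 40 of the 40 cells at 5 dpi, a count that does not show how evenly their UMIs were spread. *Lamb1*, a laminin chain, was at 0 UMIs at 0 dpi and at 270 CPM at 5 dpi, at least 5.04-fold higher against a floor of 3 counts in the library. In *Vwf*-negative cells the ratios were 4.44 for *Col4a1* and 2.84 for *Col4a2*, and in non-endothelial cells 0.291 and 0.326.

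FAP markers moved the same way as the matrix genes, with 5 of 6 tested at least 2-fold higher, and their sum went from 197 CPM with 6 of 11 at 0 to 2408 CPM with none at 0. Muscle markers were higher in 2 of 7. Their part in the matrix values was not tested.

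Angiogenesis genes were higher more often than lower, and inflammatory genes went both ways. In the angiogenesis list 9 of 18 genes were higher and 4 lower, with *Angpt2*, the angiopoietin of remodelling vessels, at 10.8 times (2.95 to 90.1), *Nrp2*, a VEGF co-receptor, at 5.21 (2.80 to 11), *Kdr*, the main VEGF receptor, at 3.24 (1.67 to 7.18), and *Pdgfb*, which recruits pericytes, at 3.12 (1.76 to 6.11). The 4 lower ones were *Vegfc* at 0.0555 times the 0 dpi level, *Vegfa* at 0.331, *Unc5b* at 0.485, and *Tek* at 0.490. *Edn1*, the gene of the vasoconstrictor endothelin-1, went from 1 UMI to 562 CPM (ratio 31.5, 5.59 to 1250). *Ccl2*, a monocyte chemokine, went from 1 UMI to 1224 CPM with 37.2% from 1 cell. In the list of leukocyte recruitment 4 of 19 genes were higher and 5 lower (median ratio 0.825), and in that of antigen presentation and interferon response 3 of 15 were higher and 1 lower (median 1.28), the last being *Isg15* at 0.457 (0.351 to 0.600). *Cxcl10* and *Ifit3*, both interferon-induced, were 14.8 (5.03 to 72.3) and 4.42 times (1.99 to 12.2) higher, against 9.15 and 6.04 times in non-endothelial cells.

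Venule genes were lower at 5 dpi in the *Vwf*-positive cells of control muscle. Of 14 tested, 10 were at least 2-fold lower and 1 higher (median ratio 0.262). *Selp* was at 0.128 times its 0 dpi level (0.106 to 0.155), *Ackr1* at 0.0600 (0.0311 to 0.111), *Ptgs1* at 0.109 (0.0518 to 0.227), *Lrg1* at 0.227 (0.130 to 0.405), and *Vcam1* at 0.301 (0.215 to 0.427). The 0 dpi values of *Selp* and *Ackr1* came mostly from 1 cell, as given above, and the intervals of their ratios do not cover this. The 16 venule markers summed to 8629 CPM at 0 dpi and 2005 CPM at 5 dpi in *Vwf*-positive cells. In *Vwf*-negative cells the order was the other way, at 796 and 1387 CPM. Immediate early genes were lower in 8 of 14, with *Fos* at 0.207 (0.166 to 0.257), and arterial genes in 8 of 15, with *Mgp*, a calcification inhibitor, at 0.139 (0.0861 to 0.223) and *Eln*, the elastin gene, at 0.237 (0.126 to 0.459). *Fos* was also lower in *Vwf*-negative (0.266) and non-endothelial cells (0.382).

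Between 5 and 14 dpi in controls, 263 of 3400 genes (7.74%) were at least 2-fold higher and 199 (5.85%) lower, and in hypothyroid muscle 425 (13.1%) and 334 (10.3%) of 3242. The same direction in both diets was found for 64 (2.21%) higher and 33 (1.14%) lower of 2899 genes tested in both. *Edn1* was at 0.172 times its 5 dpi level (0.134 to 0.218) in control and 0.0378 (0.0220 to 0.0613) in hypothyroid muscle. *Pdgfb* was at 0.270 and 0.251, *Col18a1*, the basement membrane collagen that yields endostatin, at 0.299 and 0.108, *Plvap* at 0.417 and 0.285, and *Prcp*, a lysosomal carboxypeptidase, at 0.204 and 0.282. *Edn1*, *Pdgfb*, *Col18a1*, and *Plvap* were thus lower at 14 dpi in both diets.

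Capillary genes were among those higher at 14 dpi. Of 12 tested in both diets, 3 were at least 2-fold higher in each and 0 lower, namely *Cd36* (2.12 times, 1.86 to 2.42, and 2.38 times, 1.86 to 3.07), *Timp4*, a metalloproteinase inhibitor (14.5 times, 6.10 to 45.2, and 19.0 times, 3.31 to 761), and *Tcf15*, a transcription factor of muscle endothelium. In hypothyroid muscle alone 9 of 12 were higher. *Txnip*, a regulator of glucose uptake, was 3.32 and 6.77 times higher, and *Igfbp5*, an IGF-binding protein, 5.86 times in control and at least 9.11-fold in hypothyroid muscle, where 49.5% came from 1 cell. The log2 ratio of *Igfbp5* in control muscle turned to -0.083 with cells thinned before the rule, and was 3.19 and 3.41 without lymphatic-marked cells and without the top 5% of cells by UMIs. Markers of other cells moved with these values, with hemoglobin genes higher in 3 of 3, mural genes in 6 of 7, and muscle genes in 6 of 6 tested in both diets. The mural sum went from 1908 to 6533 CPM in control and from 1102 to 4681 CPM in hypothyroid cells, and its part was not tested.

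**Figure D5:**
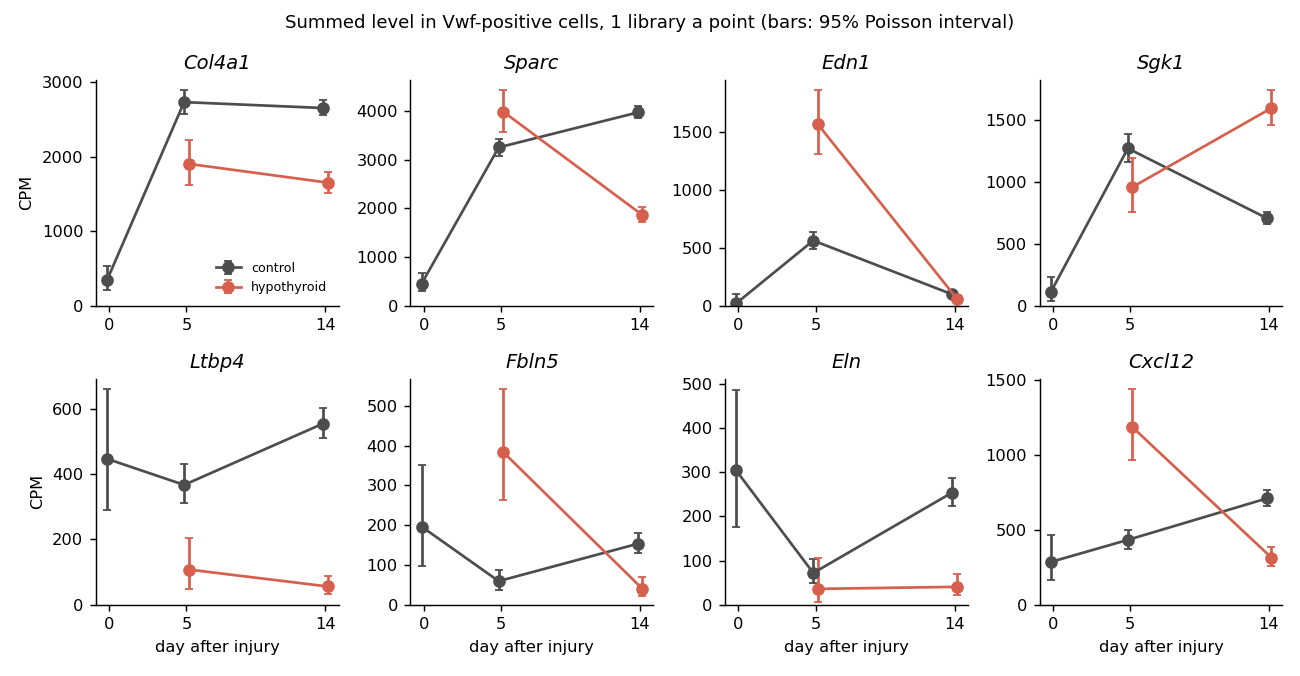
Summed level of 8 genes (vertical axes, CPM) in *Vwf*-positive cells by day after injury (horizontal axis) in control (dark) and hypothyroid (red) muscle. Each point is 1 library and bars are 95% Poisson intervals for counting error only. *Edn1* is higher at 5 than at 14 dpi in both diets, and *Ltbp4*, *Fbln5*, *Eln*, and *Cxcl12* are lower in hypothyroid than in control cells at 14 dpi.

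The comparison of diets, which asks how low thyroid hormone changes the cells, rested on the most cells at 14 dpi, with 41 hypothyroid and 163 control cells. Of 3391 genes, 68 (2.01%) were at least 2-fold higher and 167 (4.92%) lower in hypothyroid muscle. In the arterial list 11 of 15 genes were lower and 1 higher, with a median ratio of 0.316 against 1.03 over all genes tested. *Ltbp4*, a TGF-β-binding protein of elastic fibres, was at 56.1 CPM (33.3 to 88.7) against 554 CPM (510 to 602), a ratio of 0.101 (0.0596 to 0.162), and was seen in 12 of 41 against 139 of 163 cells. *Eln* was at 40.5 CPM (21.6 to 69.3) against 254 CPM (224 to 287), a ratio of 0.160 (0.0840 to 0.278). *Eln* was seen in 6 of 41 against 61 of 163 cells, so many control cells carried these transcripts.

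Other genes of elastic fibres and arteries gave like ratios. *Mgp* was at 0.0908 (0.0505 to 0.151), *Stmn2*, a microtubule regulator found in arterial endothelium, at 0.121 (0.0436 to 0.268), *Sema3g*, a secreted semaphorin, at 0.112 (0.0300 to 0.295), *Fbln5*, an elastic fibre scaffold, at 0.265 (0.138 to 0.466), and *Cxcl12*, the ligand of CXCR4, at 0.443 (0.356 to 0.547). The Notch genes *Hey1* and *Dll4* were at 0.490 (0.301 to 0.763) and 0.488 (0.233 to 0.927). *Sox17*, a transcription factor of arterial fate, was the 1 gene that was higher, at 2.07 times (1.65 to 2.60). *Jag1* and *Notch1* were at 0.962 (0.622 to 1.45) and 1.31 (1.04 to 1.64), so the list did not move as a whole.

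These ratios were not confined to *Vwf*-positive cells. In *Vwf*-negative endothelial cells *Ltbp4*, *Mgp*, and *Eln* were at 0.227, 0.200, and 0.359 times the control level, and in non-endothelial cells at 0.564, 0.410, and 0.383. FAP markers were lower in 6 of 7, muscle markers in 7 of 8, and hemoglobin genes in 4 of 4, with FAP sums of 502 against 2254 CPM and 2 against 0 of 11 markers at 0. *Acta2*, a smooth muscle gene, was at 0.137 (0.0848 to 0.209), while the mural list as a whole had a median of 0.813. The part of RNA from other cells was not tested.

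Capillary-type and matrix genes differed as well at 14 dpi. *Rgcc*, a cell cycle regulator common in capillary cells, was at 1301 CPM against 588 CPM, 2.21 times higher (1.95 to 2.51), and *Sgk1*, a stress-responsive kinase, at 1597 against 707 CPM, 2.26 times (2.01 to 2.53), with ratios of 1.58 and 1.42 in *Vwf*-negative cells. Of the 13 capillary genes these were the 2 called, and 0 were lower. *Sparc* was at 0.469 (0.430 to 0.511), *Fn1*, the fibronectin gene, at 0.324 (0.213 to 0.476), and *Col18a1* at 0.235 (0.110 to 0.446). *Clec2d*, a C-type lectin, was 3.26 times higher (2.66 to 4.0), and *Akap12*, a kinase scaffold, 2.58 times (2.28 to 2.91), with 2.06 and 2.35 in *Vwf*-negative cells.

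Some large ratios at 14 dpi rested on single cells. The MHC class II genes *Cd74*, *H2-Aa*, and *H2-Ab1* were at 0.0724 (0.0263 to 0.160), 0.0635 (0.0129 to 0.189), and 0.0209 times (0.000525 to 0.118) the control level, but 62.6%, 57.6%, and 52.9% of their control UMIs came from 1 cell, and in *Vwf*-negative cells the ratios were 3.72, 3.78, and 3.18. *Cyp1a1*, a target of the aryl hydrocarbon receptor, was 5.80 times higher with all 27 control UMIs in 1 cell. *Adm*, the adrenomedullin gene, was 2.36 times higher (1.79 to 3.10) with 41.7% from 1 hypothyroid cell. *Selp* had a ratio of 1.08 (0.946 to 1.24), but from 2 hypothyroid against 37 control cells.

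At 5 dpi only 11 hypothyroid cells stood against 40 control cells. Of 3226 genes, 275 (8.52%) were at least 2-fold higher and 413 (12.8%) lower. Genes of leukocyte recruitment were lower in 10 of 19 and higher in 1 (median ratio 0.422 against 0.967 over all genes). *Selp* was at 0.311 (0.167 to 0.532), *Irf1*, an interferon response factor, at 0.271 (0.107 to 0.575), and *Ccl2* at 0.186 (0.111 to 0.294). *Ccl2* went the other way in *Vwf*-negative cells, at 13.7 times the control level. From means over cells of log2(CPM + 1) its log2 ratio in *Vwf*-positive cells turned to 2.71, and without lymphatic-marked cells it was -1.52.

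Vasoactive and arterial genes were among the higher ones at 5 dpi. *Edn1* was at 1570 CPM (1312 to 1862) against 562 (492 to 641), a ratio of 2.79 (2.23 to 3.48) with 61.8% from 1 cell, and at 0.414 in *Vwf*-negative cells. *Fbln5* was at 383 CPM in 7 of 11 cells against 59.5 CPM in 14 of 40, 6.45 times higher (3.68 to 11.4), with 31.2% from 1 cell. *Stmn2* (12.3 times, 5.94 to 27.4) and *Cxcl12* (2.74 times, 2.12 to 3.52) drew 64.3% and 56.6% of their UMIs from 1 cell. *Ltbp4* was lower at 5 dpi too, at 0.294 (0.132 to 0.573).

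*Klf9*, a transcription factor induced by thyroid hormone, was the 1 of 5 tested thyroid hormone genes called at 5 dpi. It stood at 132 CPM (65.8 to 236) against 729 CPM (648 to 817), a ratio of 0.181 (0.0893 to 0.328), and at 0.318 in *Vwf*-negative and 0.565 in non-endothelial cells. At 14 dpi its levels were 758 and 668 CPM, a ratio of 1.13 (0.975 to 1.31). *Thra*, the gene of thyroid hormone receptor α, was at 78.0 against 87.8 CPM at 14 dpi (0.888, 0.546 to 1.40), and 0 of 5 thyroid genes were called there.

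The 5 dpi difference of *Gm10076* ran through the whole library. The gene was 18.8 times higher in hypothyroid *Vwf*-positive cells, 17.1 times in *Vwf*-negative cells, and 16.8 times in non-endothelial cells. FAP markers were lower in 5 of 5 and muscle markers in 7 of 7, with muscle sums of 119.8 against 3613 CPM and 7 against 2 of 12 markers at 0. Most of the control values of those markers came from 1 cell, 90.3% for *Mylpf* and 92.6% for *Col1a1*. The part of these transcripts in the other ratios was not tested.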

How the data were processed

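The authors aligned reads to mm39 with Cell Ranger in Partek Flow, counted UMIs, filtered cells, and scaled each cell. The deposited values are log2(CPM + 1) per cell for 12436 genes, so log2 is the unit of every file. To get UMIs back, the commonest value over 0 in a cell was taken as 1 UMI, after which 99.9% of 39334018 values were whole within 0.1.

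Each file holds runs of alphabetically ordered barcodes, and only the first run of each was used (11207 of 20269 columns), since later runs held some copies of cells of other conditions, and whether a first run belongs to its label could not be checked. UMIs were summed per library and class. limma 3.58.1 (R 4.3.3, library as a block, Benjamini-Hochberg adjustment) tested log2(CPM + 10) for genes with a mean of at least 50 CPM. Its self-test on simulated sums of 3427 genes called 58% of 2-fold and 99.0% of 4-fold changes. The simulated sums had equal means in every library, the same scatter for every gene, and none ruled by 1 cell. Those rates thus need not hold for the data, where 1 cell held most UMIs of genes such as *Selp*. Since p-values rest on single libraries of 3 pooled mice, conditions were compared only as ratios with exact intervals in Python 3.11.15 with scipy 1.17.1. The planned comparisons of hypothyroid muscle at 0 dpi were not run, as it held 1 cell.

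Members, rule, and the 24 gene lists were chosen with earlier results of these data known. Named genes are those of the lists and the 8 each way with the largest ratio by the interval end nearest 1, of which 1 is not reported here. *Spp1*, *Tnfrsf12a*, *Il6st*, and the vessel-type sets were picked after values were seen. Of 335 list genes, 322 were found and the others are not analysed here.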

Additional observations from a re-analysis of the deposited data

Results flagged for a closer look

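For 4 genes the hypothyroid over control ratio in *Vwf*-positive cells pointed one way at 5 dpi and the other at 14 dpi, and with 1 library per condition the difference between the days was not tested. *Stmn2* was at 12.3 and then 0.121, *Fbln5* at 6.45 and then 0.265, and *Cxcl12* at 2.74 and then 0.443. *Csf3* went from 0.254 (0.0297 to 0.985, from 2 hypothyroid UMIs) to 2.44, and the second of these rested on 1 hypothyroid cell with 96.8% of the UMIs.

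The columns after the first run of each file held 238 more *Vwf*-positive endothelial cells, which no comparison above used. All 29 in the control 0 dpi file were copies of hypothyroid 14 dpi cells, and all 9 in the hypothyroid 0 dpi file were copies of control 5 dpi cells. The other 97, 75, and 28, in the control 5 dpi, control 14 dpi, and hypothyroid 5 dpi files, were not copies of cells in a first run.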

How the results depend on the processing

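Precision was limited by 11 to 163 *Vwf*-positive cells per library, by 1 library per condition, and by depth, since 148 of 268 cells were chosen on 1 UMI. Of 1219 recomputed values, 969 kept their direction and side of the threshold, 191 moved, 26 passed a threshold they had missed, and 33 turned, and the cause was not tested. No paired analysis was possible because each condition has 1 library, and a diet effect averaged over 5 and 14 dpi, with the day as a block, was not run. Comparisons that left under 10 cells in a library were not run (5 dpi between diets, 14 against 5 dpi in both diets, and 5 against 0 dpi in controls, with *Vwf* at 2 UMIs or more or after thinning, and the last also with at least 3 endothelial genes). The mean CPM filter of 200 and the sums without each gene's highest cell were added after the data were seen.

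With *Vwf* at 2 UMIs or more the *Vwf*-positive share was 20.6%, 10.1%, 0%, and 7.72% in control 5 and 14 dpi and hypothyroid 0 and 14 dpi muscle. After thinning it was 9.43%, 10.4%, 0%, and 4.90% in these libraries and 7.41% in hypothyroid 5 dpi muscle. With all columns of each file it was 20.4% in control 5 dpi muscle. Between *Vwf*-positive and *Vwf*-negative cells, 31 genes were higher and 22 lower at an adjusted p under 0.05 with all columns, 6 and 8 with *Vwf* at 2 UMIs or more, and 7 and 10 with voom weights, and leaving out 1 library in turn gave 0 to 0 higher and 0 to 1 lower, the 1 without control 5 dpi. With all columns, 29 of the 41 *Vwf*-positive cells of the control 0 dpi file were copies of hypothyroid 14 dpi cells. The hypothyroid 0 dpi file then entered with 10, of which 9 were copies of control 5 dpi cells. Libraries of that fit thus shared cells, and its 31 and 22 calls cannot be set beside the main fit. The fit with *Vwf* at 2 UMIs or more lacked control 0 dpi and hypothyroid 5 dpi muscle.

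Counts of genes at least 2-fold higher and lower moved with the filter, with means over cells, and with all columns. The later columns are of uncertain condition, and those of the control 0 dpi file held copies of hypothyroid 14 dpi cells. Between diets at 5 dpi they were 54 and 121 with all columns, 841 and 1020 at a mean CPM of at least 10, 1582 and 1020 with no filter beyond 1 UMI, 55 and 76 at 200 CPM, and 471 and 1006 from means over cells of log2(CPM + 1). At 14 dpi the higher count was 29 with all columns, 145 with *Vwf* at 2 UMIs or more, 571 after thinning, 111 without lymphatic-marked cells, 114 without the top 5% of cells by UMIs, 359 at 10 CPM, 628 with no filter, 17 at 200 CPM, and 707 from means over cells. The lower count was 495 after thinning, 918 at 10 CPM, 1448 with no filter, and 39 at 200 CPM. From 0 to 5 dpi in controls they were 125 and 69 with all columns, 919 and 1339 at 10 CPM, 919 and 2401 with no filter, 101 and 116 at 200 CPM, and 1642 and 373 from means over cells. From 5 to 14 dpi in both diets they were 8 and 15 with all columns, 193 and 61 at 10 CPM, 200 and 88 with no filter, and 14 and 11 at 200 CPM, with 52 lower without the top 5% and 360 lower from means over cells.

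Single genes turned as follows on the log2 scale. Fits of *Vwf*-positive against *Vwf*-negative cells after thinning or with *Vwf* at 2 UMIs or more lacked control 0 dpi and hypothyroid 5 dpi muscle. The fit with at least 3 endothelial genes lacked control 0 dpi muscle. Values with all columns rest on columns of uncertain condition, and in the control 0 dpi file on copied cells. Between *Vwf*-positive and *Vwf*-negative cells, thinning of rule and sums gave -0.013 for *Cpe*, -0.11 for *Tmem252*, -0.014 for *Emcn*, -0.30 for *Icam1*, -0.16 for *Smad6*, -0.31 for *Notch1*, -0.17 for *H2-K1*, and 0.34 for *Timp4*, and thinning before the rule gave -0.62 for *Vcam1*, -0.015 for *Icam1*, -0.095 for *H2-K1*, and 0.13 for *Timp4*. With at least 3 endothelial genes *Vcam1* was at -0.70 and *Rgcc* at 0.10, and with *Vwf* at 2 UMIs or more *Rgcc* was at 0.15. Leaving out 1 library in turn gave -0.26 to 1.18 for *Vcam1* and -0.51 to 0.080 for *Rgcc*, both turning without control 0 dpi muscle, and without its highest cell *Vcam1* was at -0.080. *Cd63* was at 0.68 from means over cells and *Fabp4* at -0.11 without lymphatic-marked cells. Between diets at 5 dpi, all columns gave -0.53 for *Fos* and 0.28 for *Sox4*, and means over cells 2.71 for *Ccl2*. At 14 dpi, *Vwf* at 2 UMIs or more gave 0.41 for *H2-Ab1* and 1.14 for *Cd74*, and means over cells 0.46 for *Cd74*. *Csf3* was at -1.67 after thinning, -2.74 with at least 3 endothelial genes, -2.98 without its highest cell, and -0.48 from means over cells. From 0 to 5 dpi in controls *Sgk1* was at -0.61 with all columns and *Csf3* at 0.77 from means over cells, and from 5 to 14 dpi *Igfbp5* was at -0.083 after thinning.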
